A study of Homo sapiens with 2 samples.

Results

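The ATP-binding cassette (ABC) transporters were described here as the protein-coding rows whose symbol is ABC, a letter from A to G and a number. The rule found 45 genes among 57773 rows, of which 20325 were protein-coding, and 43 of the 45 are described. Counts of members are over these 43, and the family's reads are those of the 41 with a regular row. By the labels, the RNA was that of spheroids, small balls of cells, formed by the breast cancer line MDA-MB-231 in medium with 10% serum. This human line is triple-negative, lacking the oestrogen and progesterone receptors and HER2 amplification. There was 1 Control library and 1 library from spheroids treated with TGS24, a code name for a compound whose dose and time of treatment the sources used here do not give. The study's design asks about gene expression in the MAPK12 pathway under TGS24, and the ABC genes are not part of that question.

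ABC proteins share a nucleotide-binding domain that binds and hydrolyses ATP. In most of them it is joined to membrane-spanning segments, and the protein moves lipids, sterols, bile salts, drugs, peptides or metal-containing compounds across a membrane. Subfamily A moves mostly lipids, B holds drug pumps, bile lipid and mitochondrial transporters, C holds organic anion pumps and the sulphonylurea receptors, D serves the peroxisome and lysosome, and G moves sterols and drugs. Subfamilies E and F have no membrane-spanning segments and act on ribosomes and translation. In breast cancer the family is best known for ABCB1, ABCC1 and ABCG2, which pump chemotherapy drugs out of cells.

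The element that unites the family is the Walker A motif, a glycine-rich loop that wraps the phosphates of ATP. Among the principal coding transcripts of GENCODE v29, 42 of the 43 members held a match to it, 31 of them with 2 matches and 11 with 1. The coding DNA of this motif is shown for the 2 members that were at least 2-fold higher in TGS24, the 4 that were at least 2-fold lower, and ABCC2 and ABCD4, whose deposited values are the same although the genes differ. Capitals mark the 8 codons of the motif, with 18 bases on each side. Where a transcript held more than 1 match, the first that lies before an ABC signature is shown.
ABCE1: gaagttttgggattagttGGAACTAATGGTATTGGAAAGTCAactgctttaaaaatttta
ABCD3: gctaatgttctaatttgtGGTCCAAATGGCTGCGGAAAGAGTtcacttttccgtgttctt
ABCA10: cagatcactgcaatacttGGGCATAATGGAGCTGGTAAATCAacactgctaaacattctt
ABCA4: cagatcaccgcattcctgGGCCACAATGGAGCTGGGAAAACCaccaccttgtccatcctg
ABCB4: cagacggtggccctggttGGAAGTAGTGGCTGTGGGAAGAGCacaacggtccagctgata
ABCC4: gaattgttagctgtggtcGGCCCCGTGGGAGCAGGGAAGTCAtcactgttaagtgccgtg
ABCC2: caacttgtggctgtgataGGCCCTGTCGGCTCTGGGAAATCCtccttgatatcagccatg
ABCD4: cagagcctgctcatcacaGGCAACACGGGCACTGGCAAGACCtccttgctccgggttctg
The 60 bases of ABCE1 held 18 G or C bases (30.0%), the lowest of these 8. Those of ABCD3 held 41.7%, against 24 of 60 bases in ABCA10, 56.7% in ABCA4 and ABCC4 and 58.3% in ABCB4. ABCC2 held 53.3% and ABCD4 61.7%. Over the whole coding sequence G and C made up 38.9% in ABCE1 and 41.8% in ABCD3.

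Promoter windows of RefSeq, from 250 bases before to 50 bases after a gene's start on GRCh38.p14, matched 35 members with 53 windows. They are shown for the called members with a single window, of which ABCE1 and ABCD3 were higher and ABCC4 was lower in TGS24. The windows are chr4:145098061-145098360 on the plus strand for ABCE1, chr1:94418139-94418438 on the plus strand for ABCD3 and chr13:95301402-95301701 on the minus strand for ABCC4. Capitals mark matches, on either strand, to the Sp1 box with its letters GGGCGG, the box spelled CCAAT that factor NF-Y is known to bind, the core promoter element spelled TATAAA, the E-box in the form CACGTG, the AP-1 site in the form TGACTCA, or the cyclic AMP response element (CRE) in the form TGACGTCA.
ABCE1: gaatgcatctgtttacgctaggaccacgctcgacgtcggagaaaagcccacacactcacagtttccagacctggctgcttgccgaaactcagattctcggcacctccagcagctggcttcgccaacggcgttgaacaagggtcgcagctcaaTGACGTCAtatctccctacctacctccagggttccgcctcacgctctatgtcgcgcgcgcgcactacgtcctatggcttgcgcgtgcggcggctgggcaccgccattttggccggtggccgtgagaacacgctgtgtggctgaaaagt
ABCD3: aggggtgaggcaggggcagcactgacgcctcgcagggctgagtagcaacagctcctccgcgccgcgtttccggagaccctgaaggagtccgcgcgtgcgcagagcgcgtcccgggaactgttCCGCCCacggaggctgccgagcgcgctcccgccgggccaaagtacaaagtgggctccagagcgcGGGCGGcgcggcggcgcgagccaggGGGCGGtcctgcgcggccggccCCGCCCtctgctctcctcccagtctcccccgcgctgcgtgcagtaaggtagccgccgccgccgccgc
ABCC4: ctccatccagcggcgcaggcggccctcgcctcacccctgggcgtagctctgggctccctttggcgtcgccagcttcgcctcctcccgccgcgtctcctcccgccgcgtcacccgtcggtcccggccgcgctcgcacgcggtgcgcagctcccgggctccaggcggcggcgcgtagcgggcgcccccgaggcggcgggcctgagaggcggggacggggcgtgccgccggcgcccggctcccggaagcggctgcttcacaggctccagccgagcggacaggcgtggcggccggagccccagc
ABCE1 held 1 CRE match, the only one among the 53 member windows, while 1.85% of all 35116 promoter windows held one. This motif was added to the search after the ABCE1 window had been seen. ABCD3 held 4 Sp1 box matches, and 45.0% of all windows held at least 1, as did 25 of the 53 member windows. ABCC4 held no match to the 6 motifs. A match describes these letters and is not a binding site.

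The tables held 8570604 reads in Control and 16145077 in TGS24 after 49 irregular rows were set aside, 2 of them members. In Control 55.7% of the reads, and in TGS24 42.4%, came from small or mitochondrial RNA genes. Where 2 read counts stand together, Control comes first. As markers of the line, 8 genes listed for its identity summed to 6420 and 7402 reads, with none under 20, while VIM and CD44 stood in irregular rows. The sum was uneven: MSN had 2509 and 4027 reads and TMSB10 1641 and 1163, while LGALS1 had 72 and 32 and EGFR 95 and 147. The 6 epithelial or luminal markers summed to 51 and 59, among them KRT8 with 0 and 5 and KRT18 with 4 and 2 reads, although MDA-MB-231 is known to express these keratins. The 4 red cell genes summed to 5876 and 12362 reads, most of them from the globin gene HBB with 4860 and 10453, which a breast line is not expected to hold. Leukocyte genes (5) summed to 68 and 149, with CD68 at 0 in both, fibroblast genes (5) to 77 and 91, liver or gut genes (4) to 75 and 98, and endothelial genes (3) to 33 and 42. The part of these reads in the ABC values was not tested.

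The family split into a few well-covered genes and many that were close to absent. Of the 41 described members with a regular row, 40 had a read, 32 had at least 20 reads over both libraries and were compared, and 9 had fewer. Together they held 3832 reads in Control and 12764 in TGS24, or 0.045% and 0.079% of all reads. All reads here include those of small and mitochondrial RNA genes, 55.7% in Control and 42.4% in TGS24. The part of that difference in the family's 2 shares was not tested. ABCE1 and ABCD3 were at least 2-fold higher in TGS24, where 15.9% of 10080 genes were. ABCA10, ABCA4, ABCB4 and ABCC4 were at least 2-fold lower, where 4.27% of all genes were, and 26 members passed in neither direction. Called here means a log2 ratio of at least 1 in size, from reads scaled to the library totals with TMM factors, and a 95% counting interval that leaves out 0.

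The median log2 ratio (TGS24 over Control) was -0.24 over the 32 members and 0.15 over all genes compared. It was positive in 11 members and negative in 21. The interval lay above 0 in 3 members, below 0 in 7 and held 0 in 22. The same counts over all genes are not given here, so a lean of the family was not tested. With at least 20 and under 50 reads, the median was -0.06 over all genes and -0.31 over 15 members. With at least 50 and under 100 reads, it was -0.07 over all genes and -0.35 over 6 members. In the classes from 100, 500 and 3000 reads, all genes had medians of 0.16, 0.41 and 0.58, and members -0.28, 0.24 and 1.84. With 1 library per group every value compares these libraries and not the conditions, has no replicate check, and covers counting error only. In RNA of whole spheroids, fewer cells of a kind and less RNA per cell cannot be told apart.

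**Figure D1:**
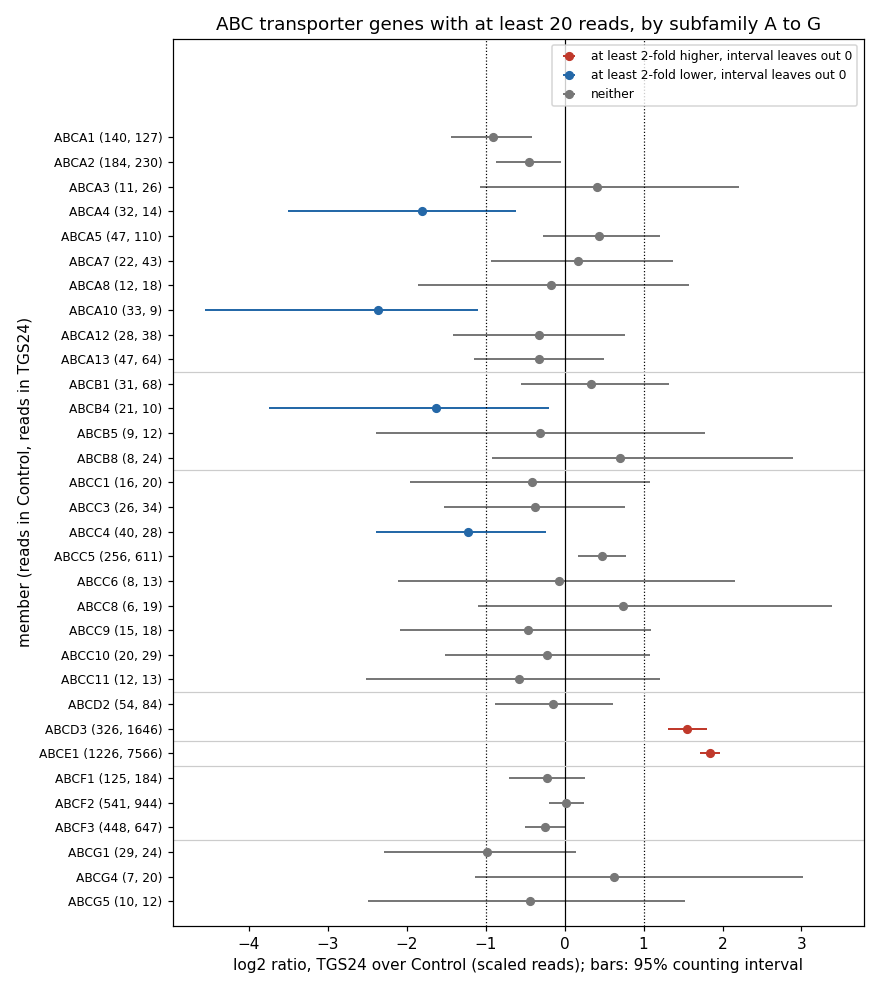
Log2 ratio of TGS24 over Control (x axis) for the 32 ABC members with at least 20 reads (y axis, with both read counts), with 95% counting intervals as bars and dotted lines at 2-fold. ABCE1 and ABCD3 sit beyond the right line with narrow bars, and ABCA10, ABCA4, ABCB4 and ABCC4 beyond the left line with wide ones.

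ABCE1 (ENSG00000164163, chromosome 4) was the most abundant member. It encodes a soluble ATPase that carries iron-sulphur clusters and splits ribosomes into subunits after a round of translation. It had 1226 reads in Control and 7566 in TGS24, a 3.58-fold higher level, with a log2 ratio of 1.84 and an interval from 1.72 to 1.97. Of its exon bases 11.9% are shared with 2 neighbours on the other strand, ANAPC10 and OTUD4, and the sources used here do not say whether counting used the strand. ANAPC10 had 69 and 561 reads with a log2 ratio of 2.21, and OTUD4 205 and 1874 with 2.40, so both lay higher in TGS24 too. Whether reads were shared among them was not tested.

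ABCD3 (ENSG00000117528, chromosome 1), the peroxisomal membrane protein PMP70, brings long-chain and branched-chain fatty acids and bile acid precursors into the peroxisome. It had 326 and 1646 reads and was 2.92-fold higher, with a log2 ratio of 1.55 and an interval from 1.31 to 1.80. Neither of the 2 higher members is a drug pump of the plasma membrane: they belong to the ribosome and the peroxisome.

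ABCE1 and ABCD3 held much of the family's RNA. In Control they held 40.5% of the reads of the members described (exact 95% binomial interval on read pairs 38.3 to 42.7), and in TGS24 72.2% (71.1 to 73.3). ABCE1 alone went from 32.0% (29.9 to 34.1) to 59.3% (58.1 to 60.5), and ABCD3 from 8.51% (7.30 to 9.85) to 12.9% (12.1 to 13.7). Shares of a whole move against each other, and the next 3 genes held less in TGS24: ABCF2 went from 14.1% to 7.40%, ABCF3 from 11.7% to 5.07% and ABCC5 from 6.68% to 4.79%.

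**Figure D2:**
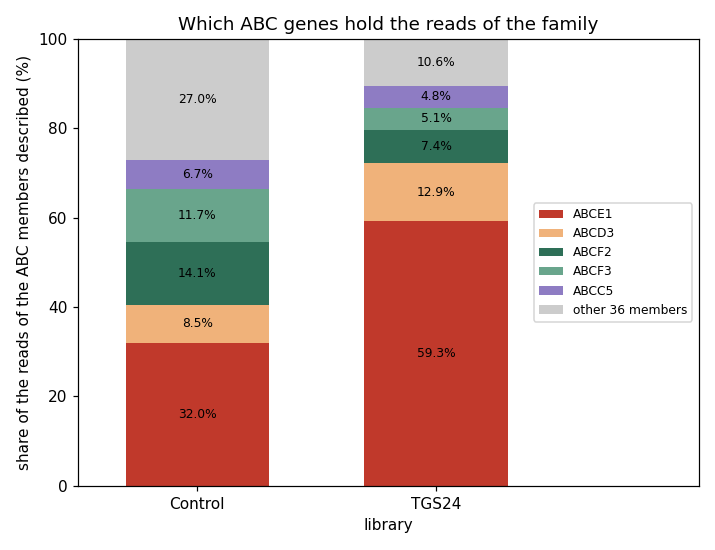
Share of the reads of the ABC members described (y axis, %) held by ABCE1, ABCD3, ABCF2, ABCF3 and ABCC5 and by the other 36 members, in the Control and the TGS24 library. ABCE1 and ABCD3 together grow from 40.5% to 72.2% of these reads.

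Levels can be compared between genes per exon length, here in RPKM from the scaled reads (reads by exon length and library size), with exact Poisson intervals on read pairs. In Control the order was ABCE1 at 21.8 (20.1 to 23.6), ABCF2 at 14.5 (12.8 to 16.3), ABCF3 at 9.60 (8.38 to 10.9) and ABCD3 at 4.79 (4.09 to 5.59), and the intervals of these 4 did not overlap. In TGS24 the per-length level of ABCE1 was 78.2 (75.7 to 80.7). ABCF2 at 14.6 (13.3 to 16.0) and ABCD3 at 14.0 (13.1 to 15.0) overlapped there, ahead of ABCF3 at 8.05 (7.19 to 8.97). ABCD3 thus moved up past ABCF3 in the order and drew level with ABCF2. Below these, ABCF1, ABCC5, ABCA2 and ABCA1 lay between 1.38 and 3.08 in Control, and every other member described was below 1.

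**Figure D3:**
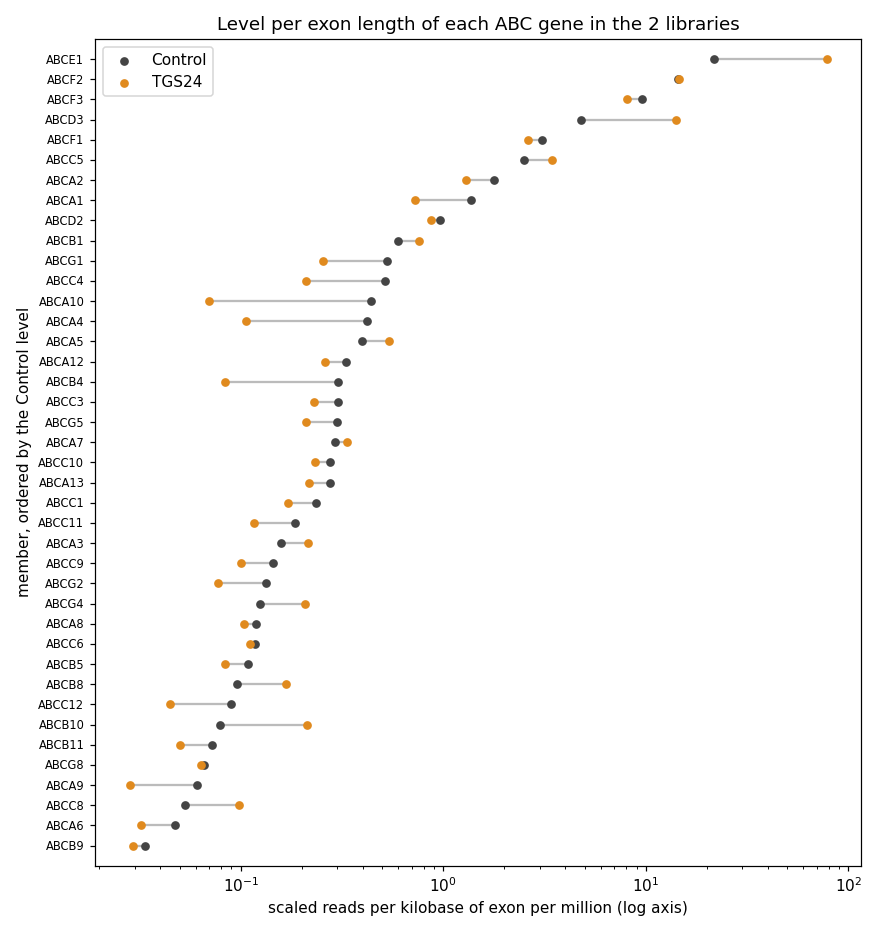
Per-length level of the 40 members with a read (RPKM from scaled reads, log axis) in Control (dark) and TGS24 (orange), ordered by the Control level. ABCE1 is highest in both libraries, and the widest gaps toward higher TGS24 levels among the well-covered genes belong to ABCE1 and ABCD3.

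Subfamily A held 12 members, of which 10 were compared, with none higher, 2 lower and a median log2 ratio of -0.33. Of all genes 15.9% were higher and 4.27% lower, and a difference from these shares was not tested for this or any other subfamily. All 12 members of subfamily A summed to 567 reads in Control and 690 in TGS24. ABCA10 (ENSG00000154263, chromosome 17) had 33 and 9 reads and was 5.15-fold lower in TGS24, with a log2 ratio of -2.36 and an interval from -4.56 to -1.10. It lies in a row of 5 related genes on 1 strand of chromosome 17, in the order ABCA8, ABCA9, ABCA6, ABCA10 and ABCA5. Of its neighbours, ABCA5 had 47 and 110 reads with a log2 ratio of 0.43 and an interval from -0.28 to 1.20, which lay apart from that of ABCA10. ABCA8 had 12 and 18 reads with -0.18 and an interval from -1.85 to 1.57 that overlapped it, so at this depth the 2 could not be told apart. ABCA6 with 6 and 7 reads and ABCA9 with 5 and 4 were under the minimum. ABCA10 shares 3.78% of its exon bases with ABCA5 on the same strand.

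ABCA4 (ENSG00000198691, chromosome 1), the retinal flippase of photoreceptors, had 32 and 14 reads. It was 3.49-fold lower, with a log2 ratio of -1.80 and an interval from -3.50 to -0.62. ABCA1, which loads cholesterol and phospholipid onto apolipoprotein A-I, had 140 and 127 reads. Its log2 ratio was -0.91 with an interval from -1.44 to -0.41, short of 2-fold. With library totals alone its log2 ratio was -1.04 and with the authors' size factors -1.06, both past 2-fold. ABCA2, a lipid transporter of endosomes and lysosomes, had 184 and 230 reads and a log2 ratio of -0.46 (-0.87 to -0.05).

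The other members of subfamily A that were compared had intervals that held 0. ABCA3, which fills the surfactant-storing bodies of lung cells, had 11 and 26 reads with a log2 ratio of 0.41. ABCA7, a phospholipid transporter known from Alzheimer's disease genetics, had 22 and 43 reads with 0.17. ABCA12, which loads lipid into the lamellar granules of the epidermis, had 28 and 38 reads with -0.33, and ABCA13 had 47 and 64 with -0.33.

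In subfamily B 4 of the 8 members described were compared, with a median of 0.01. None was higher, where 15.9% of all genes were, and 1 was lower, where 4.27% were. ABCB1, or P-glycoprotein, the drug efflux pump, had 31 and 68 reads. Its log2 ratio was 0.33 (-0.56 to 1.32), and at this depth a difference could not be detected. ABCB4 (ENSG00000005471, chromosome 7), next to ABCB1 on the same strand, moves phosphatidylcholine into bile. It had 21 and 10 reads and was 3.09-fold lower, with a log2 ratio of -1.63 and an interval from -3.74 to -0.19. The pair thus differed in the sign of its ratios, and the intervals of the 2 genes overlapped between -0.56 and -0.19.

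The remaining members of subfamily B that are described had at most 32 reads over both libraries. ABCB8, of the inner mitochondrial membrane, had 8 and 24 reads with a log2 ratio of 0.70 (-0.92 to 2.89). ABCB10, which acts in haem synthesis, had 3 and 14 reads, under the minimum. ABCB6 had 0 reads in both libraries, where 3 reads would give per-length levels of 0.0640 in Control and 0.0371 in TGS24. ABCB5 had 9 and 12 reads with a log2 ratio of -0.31. ABCB9, a lysosomal peptide transporter, had 4 and 6 reads and ABCB11, the bile salt export pump, 5 and 6.

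In subfamily C 9 of 11 members were compared, with a median of -0.37. None was higher, where 15.9% of all genes were, and 1 was lower, where 4.27% were. ABCC4 (ENSG00000125257, chromosome 13), or MRP4, which exports cyclic nucleotides and other organic anions, had 40 and 28 reads. It was 2.34-fold lower in TGS24, with a log2 ratio of -1.23 and an interval from -2.40 to -0.24. ABCC5, or MRP5, also an exporter of cyclic nucleotides, was the best covered member of the subfamily with 256 and 611 reads. Its log2 ratio was 0.47 with an interval from 0.17 to 0.78, above 0 but short of 2-fold. MRP4 and MRP5 thus lay on opposite sides of 0, with intervals that did not overlap.

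The drug pumps of subfamily C were thinly covered. ABCC1, or MRP1, had 16 and 20 reads with a log2 ratio of -0.42 (-1.96 to 1.08). ABCC3, or MRP3, had 26 and 34 reads with -0.37, and ABCC10, or MRP7, had 20 and 29 with -0.23. ABCC11 had 12 and 13 reads with -0.58, and its neighbour ABCC12 had 7 and 6, under the minimum. Of the exon bases of ABCC11 5.23% are shared with other genes, among them LONP2 on the other strand with 231 and 391 reads. Whether ABCC11 and LONP2 shared reads was not tested. ABCC6, in which mutations cause pseudoxanthoma elasticum, had 8 and 13 reads with -0.07, and its pseudogenes ABCC6P1 and ABCC6P2 had 6 and 4 and 0 and 2 reads. Reads of ABCC6 and these near-identical copies cannot be told apart with certainty. The sulphonylurea receptors, subunits of ATP-sensitive potassium channels, were ABCC8 with 6 and 19 reads and a log2 ratio of 0.74 and ABCC9 with 15 and 18 reads and -0.47. Both intervals held 0.

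Subfamily D brings fatty acids into peroxisomes, apart from ABCD4, a lysosomal protein of cobalamin transport. Besides ABCD3, ABCD2 had 54 and 84 reads with a log2 ratio of -0.14 and an interval from -0.88 to 0.61. The intervals of ABCD3 and ABCD2 did not overlap.

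Subfamily F acts in translation, and its 3 members were among the best covered of the family. ABCF1, which binds the initiation factor eIF2, had 125 and 184 reads with a log2 ratio of -0.22 (-0.71 to 0.26). ABCF2 had 541 and 944 reads with 0.02 (-0.20 to 0.24), which leaves out a 2-fold difference in either direction. ABCF3 had 448 and 647 reads with -0.25, and its interval from -0.50 to -0.0024 ended just below 0. The intervals of all 3 lay apart from that of ABCE1, the other soluble member, which began at 1.72.

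Subfamily G was the least covered, with 58 and 72 reads over 5 members. ABCG1, which hands cholesterol to high-density lipoprotein, had 29 and 24 reads with a log2 ratio of -0.98 (-2.29 to 0.15). Its log2 ratio was -1.13, with an interval that left out 0, under the authors' size factors. ABCG4, a sterol transporter of the brain, had 7 and 20 reads with 0.63 (-1.14 to 3.02). ABCG5, which with ABCG8 pumps plant sterols and cholesterol back into gut and bile, had 10 and 12 reads with -0.44, and ABCG8 had 6 and 10, under the minimum. ABCG2, the breast cancer resistance protein, had 6 reads in each library, too few for a comparison.

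Depth separated the higher from the lower members. The 2 higher ones had 1972 to 8792 reads over both libraries, and the 4 lower ones had 31 to 68. Among members with 20 to 49 reads, 3 of 15 were called, all lower, and the median interval was 3.55 log2 units wide. The same class of all genes held 101 higher and 156 lower of 3179. Among the 11 members with at least 100 reads, 2 were higher and none lower, where 25.1% of 5533 genes were higher and 2.78% lower, so 2 of 11 is near the share of all genes. Of the 2519 genes with at least 100 and under 500 reads 451 were higher and 114 lower, of the 2138 with at least 500 and under 3000 reads 619 and 31, and of the 876 with at least 3000 reads 317 and 9. The lower calls thus rest on few reads: ABCA10 on 9, ABCB4 on 10, ABCA4 on 14 and ABCC4 on 28 in TGS24.

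The GC content of the transcript moved with the ratio over all genes. Across 5469 genes with at least 100 reads, Spearman's rho between GC content and log2 ratio was -0.67 and Pearson's r -0.64, over genes that share both libraries. ABCD3 at 37.6% GC and ABCE1 at 38.4% lay in the low range, where all genes leaned higher: among the 1992 genes of lowest GC content, from 30.2% to 40.7%, the median was 0.90. Among the 32 members rho was 0.09, and among the 11 with at least 100 reads it was -0.50. In that range the 7 members had a median of -0.14, with ABCA5, ABCA10, ABCB5, ABCC9 and ABCD2 below their GC class.

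When ratios were centred on the median of 20 GC classes, ABCE1 was at 0.90 (0.77 to 1.02) and ABCD3 at 0.60 (0.36 to 0.86), above their class but short of 2-fold. After centring 5.51% of 9960 genes were higher and 5.89% lower, and of the members none was higher and 7 were lower. The 7 were ABCA10 at -3.37, ABCB4 at -1.91, ABCA4 at -1.69, ABCC4 at -1.60, ABCA1 at -1.16, ABCD2 at -1.15 and ABCA13 at -1.07. ABCA5 changed sign, from 0.43 to -0.58. What part GC content has in these ratios was not tested beyond the centring.

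**Figure D4:**
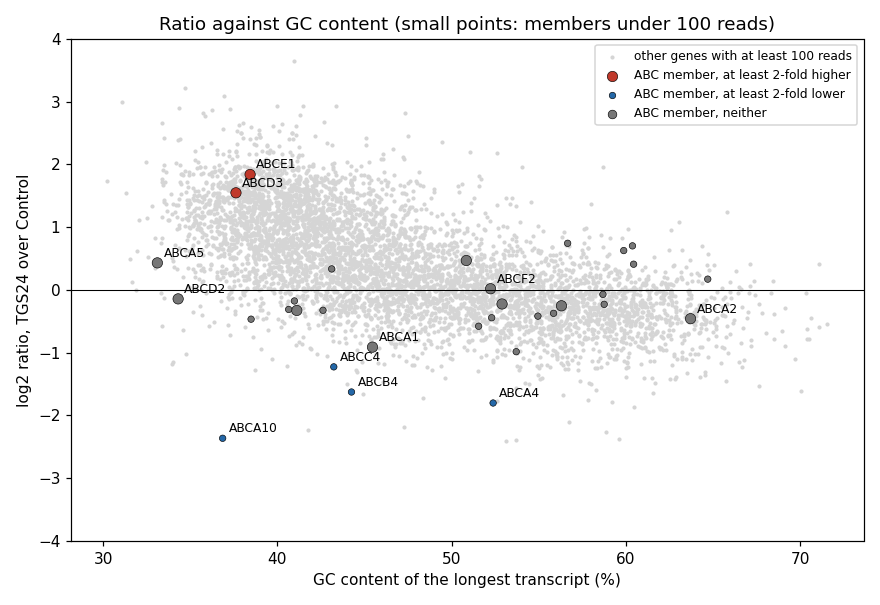
Log2 ratio of TGS24 over Control (y axis) against GC content of the longest transcript (x axis, %) for all genes with at least 100 reads (grey) and the ABC members (large points at least 100 reads, small points fewer). ABCE1 and ABCD3 lie on the low-GC side with the higher genes, while ABCA10, ABCB4 and ABCC4 lie below most grey points of similar GC content. ABCA10, ABCB4 and ABCC4 had under 100 reads, unlike the grey points.

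ABCC2 (ENSG00000023839, chromosome 10), or MRP2, a pump of conjugated organic anions in liver and gut, and ABCD4 (ENSG00000119688, chromosome 14) were kept out of all counts of reads and of compared or called members, except where the filtered or called table's values were tried as an alternative. The authors' deposited table of all genes lists both at 6.13 in Control and 27.1 in TGS24, and no row other than these 2 held this pair of values. Divided by what 1 read is worth they give 6.33 and 53.5, which are not whole reads, as in 15 rows of that table. ABCC2 kept these values in the filtered and the called table, and the authors' deposited table calls it UP with a fold of 4.42 and a log2 value of 2.14. ABCD4 stood at 627 in TGS24 in the authors' deposited filtered table, 600 above the other tables, with a fold of 102 and a log2 value of 6.68. The authors' deposited table of called genes has it back at 27.1 and UP, with a deposited fold of 4.58 and a log2 value of 0.65, where its own 2 values give a fold of 4.42 and a log2 value of 2.14. No level or direction is therefore taken from either gene, and their printed Walker A sequences show that they are distinct genes.

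The other 41 members held the same values in every table that lists them. The authors' deposited table of called genes held 3 members: ABCC2 and ABCD4 as UP and ABCA10 as Down, with a log2 value of -2.81. Of the filtered rows 1.90% were called UP and 3.35% Down. ABCE1 and ABCD3 were not among them, with 1.69 and 1.40 in the authors' deposited table of filtered genes, under the upper line of 2.01 that closes it. ABCA4 at -2.13 and ABCB4 at -2.01 in the authors' deposited table lay just above its lower line of -2.15. With ABCC2 and ABCD4 set aside, the authors' deposited table thus left ABCA10 as the 1 called member with whole reads.

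Genes that work beside the family, or regulate it, were followed as a list of 48 genes, of which 35 were compared. By the same rule 8 of the 35 were higher in TGS24, where 15.9% of all genes were, and 1 was lower, where 4.27% were, and their median log2 ratio was 0.10, against 0.15 for all genes. The ribosome rescue factors that hand ribosomes to ABCE1 included HBS1L with 435 and 2034 reads and a log2 ratio of 1.44 (1.23 to 1.66). The release factor ETF1 had 6333 and 29557 reads and 1.44 (1.38 to 1.49). GSPT1, its partner, had 0.82, and PELO, the partner of HBS1L, had 0.26 (-0.15 to 0.68). Thus 2 of these 4 were at least 2-fold higher. All 4 had at least 100 reads, and 25.1% of all genes with that many reads were higher. Whether the count differs from that share was not tested.

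Of the 5 partners of the F subfamily in translation control, 3 were higher. These 5 also had at least 100 reads each, where 25.1% of all genes were higher, and a difference from that share was not tested. The eIF2 subunit EIF2S1 had 413 and 2238 reads with a log2 ratio of 1.65, and EIF2S3 had 492 and 2687 with 1.66. EIF2AK4, the kinase GCN2, had 53 and 224 reads with 1.27 (0.67 to 1.96). None of the 5 compared genes listed for iron-sulphur clusters, the kind of cofactor that ABCE1 carries, was higher or lower by this rule. NFS1, the cysteine desulphurase, had 108 and 101 reads with -0.87 (-1.46 to -0.30), and its partner LYRM4 had 18 and 14 with -1.02 and an interval that held 0. The other 3 had positive ratios: FECH, the last enzyme of haem synthesis, with 0.72, the scaffold protein ISCU with 0.59 and GLRX5 with 0.25 (0.02 to 0.49), and only the interval of GLRX5 left out 0. The median of the 5 was 0.25.

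Among 14 compared nuclear receptors and other factors, 2 were higher, where 15.9% of all genes were, and 1 was lower, where 4.27% were. A difference from these shares was not tested. NFE2L2 (NRF2), the antioxidant factor, had 122 and 503 reads with a log2 ratio of 1.25 (0.85 to 1.69). HIF1A, the hypoxia factor, had 999 and 3641 reads with 1.08 (0.94 to 1.23), and 0.07 after GC centring. NR1H2, the liver X receptor beta that acts on ABCA1 and ABCG1, had 68 and 50 reads and was lower, with -1.19 (-2.03 to -0.44). NR1I3 had 14 and 8 reads with -1.34 and an interval that held 0. GCLC, the enzyme that starts glutathione synthesis, had 183 and 812 reads with 1.36 (1.03 to 1.71). GCLM, its modifier subunit, had 654 and 1359 reads with 0.27 (0.08 to 0.46). GSS, the next enzyme of that pathway, had 1278 and 1250 reads with -0.82 (-0.98 to -0.66), below 0 but short of 2-fold. TAP1, an ABC gene outside the symbol rule that moves peptides for antigen presentation, had 18 and 17 reads with -0.78 (-2.41 to 0.66), and TAP2 had 4 and 6. After GC centring ETF1 at 1.06, EIF2AK4 at 1.11 and GCLC at 1.08 stayed past 2-fold, and GCN1L1, the activator of GCN2, came past it at 1.10. NFE2L2 was at 0.999, EIF2S3 at 0.96, EIF2S1 at 0.78 and HBS1L at 0.49, short of 2-fold. NR1H2 at -0.95 was no longer called lower, and NFS1 at -1.03 was.

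Scaling moved the median of all genes, so each direction was read under every scaling tried. ABCE1 and ABCD3 were at least 2-fold higher under every setting except GC centring, which kept neither. ABCA10, ABCA4, ABCB4 and ABCC4 were at least 2-fold lower under each setting that compared them, and the minimum of 100 reads left all 4 out. ABCA5, ABCA7, ABCB1, ABCC6, ABCC10, ABCF2 and ABCF3 changed sign in some settings, and none of these 7 was called in any.

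**Figure D5:**
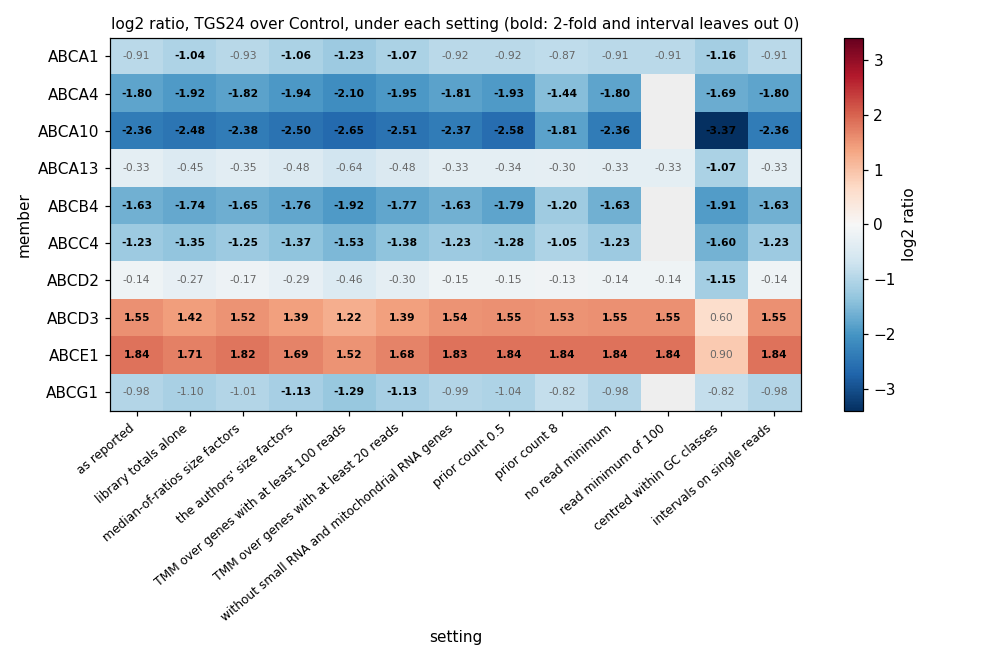
Log2 ratio of TGS24 over Control (colour and number) for the 10 members with whole reads that were called under at least 1 setting shown (y axis) across settings (x axis), with bold numbers where the ratio passed 2-fold with an interval that left out 0. ABCE1 and ABCD3 drop out on GC centring, and ABCA1, ABCA13, ABCD2 and ABCG1 are bold in some settings only.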

How the data were processed

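RNA of 1 Control and 1 TGS24 library was extracted with Trizol and read as 150-bp paired ends, per the labels' protocols. Per the submitters' processing notes the build was hg19 and the tools were featureCounts 1.5.2, STAR, Bowtie2 2.2.4, Trimmomatic and DESeq2, without roles. For strand and multi-mapping reads the handling is not given in the sources used here. In 3 tables the authors deposited a normalized signal per gene: gene counts that each library's size factor had scaled, so that a read is worth 0.969 in Control and 0.506 in TGS24. Whole reads, within a relative tolerance of 1e-06, came out for 99.9% of the deposited values above 0 in each library. The deposited ratio (fold) and log2 value are TGS24 over Control, by the authors. The design had assumed counts or recoverable reads, and reads were recovered.

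Rows with a repeated or misplaced identifier, with values that are not whole reads, or with values that differ between tables (49) were left out. Reads were scaled with TMM factors over the whole table (edgeR 4.0.16, R 4.3.3), an effective ratio of 1.72 between the libraries. Log2 ratios used a prior count of 2, for 10080 genes with at least 20 reads over both libraries. Exact Clopper-Pearson intervals (95%) were computed on read pairs. PCR copies are not independent molecules, so intervals cover counting error only. No p-value is given, as each group held 1 library. GC content, exon lengths and overlaps came from GENCODE v29 on GRCh38, matched by Ensembl identifier, so no hg19 coordinates are given, and promoter windows came from RefSeq. Walker A matches were found in translated coding sequences. Every member with at least 20 reads was named, and of the partner list the called genes and up to 4 others with the largest ratios, other partners being named as context after their values were seen. Of the members, 2 are not reported here and enter no count over members. The members and lists were chosen with earlier results of these data known. The alternatives were other scalings, prior counts, read minimums, GC centring, single-read intervals and the other tables. The log2 ratios, intervals and calls were tested on simulated Poisson read pairs with the scaling held fixed. The recovery of reads, the TMM scaling and the GC centring were not tested in this way. Calculations used Python 3.11.15, numpy 2.4.6, scipy 1.17.1, pandas 2.3.3 and matplotlib 3.10.9.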

Additional observations from a re-analysis of the deposited data

How the results depend on the processing

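No paired analysis was possible because each group held 1 library. Of 62 alternative values of the 5 counts and medians, 48 stayed close to the value as reported and 14 moved, and none reversed. The median over members, -0.24 as reported, was -0.37 with library totals alone, -0.39 under the authors' size factors, -0.56 with TMM over genes with at least 100 reads and -0.40 with TMM over genes with at least 20 reads, an alternative chosen after seeing the data. Members lower (4) became 5 with library totals alone, 6 under the authors' size factors and with TMM over genes with at least 20 or 100 reads, 7 after GC centring and 0 with a minimum of 100 reads, which compares 11 members. Of all 10080 genes, 430 were lower as reported, 590 with library totals alone and 624 under the authors' size factors. With TMM over genes with at least 20 and 100 reads, 636 and 930 were lower. After GC centring 587 of 9960 were lower, and 154 of 5533 with a minimum of 100 reads. Members higher (2) became 0 after GC centring and 4 with the values of the filtered table, which bring in ABCC2 and ABCD4. Over all genes 1607 were higher as reported and 549 after GC centring. Partners higher (8) became 5 with TMM over genes with at least 100 reads and 4 after GC centring. Partners lower (1) became 2 under the authors' size factors, 3 with TMM over genes with at least 100 reads, 2 with TMM over genes with at least 20 reads and 3 with intervals on single reads. The cause of the scaling differences was not tested. These scalings shifted the median of all genes by -0.13 (library totals) to -0.31 (TMM over genes with at least 100 reads), and the share of higher genes among the called ones was 78.9% as reported, 69.4% with library totals, 67.4% under the authors' size factors, 66.8% and 51.6% with TMM over genes with at least 20 and 100 reads, 48.3% after GC centring and 90.0% with a minimum of 100 reads. Of 427 single member values, 414 stayed within the counting interval as reported. This count cannot show stability for members with few reads, because their intervals were wide against the shifts from scaling. The median width was 3.55 log2 units over the members with at least 20 and under 50 reads. A value could also stay within its interval while its call changed, as for ABCA1, which became lower with library totals alone.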
